A study of Mus musculus with 11 samples.

Results

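The Hox genes of mouse are homeobox transcription factor genes that lie in 4 clusters, Hoxa, Hoxb, Hoxc and Hoxd. Every row of the table of all libraries whose symbol is a cluster letter followed by a paralogue number was taken, without antisense or opposite-strand symbols, which gave 29 genes of 24250. There were 10 in Hoxa, 9 in Hoxb, 5 in Hoxc and 5 in Hoxd, and Hox genes not listed in that table were not analysed here. RNA was sequenced from mouse small intestine in 11 libraries of 3 groups. FSP (n = 4) received Wu Ling San, the herbal powder with Poria that the series title names in English. HFD (n = 4) is read as a high-fat diet, and ND (n = 3) as a normal diet. The diet of FSP is not stated, although the title calls the mice obese. The labels also leave out genotype, strain, sex, age, dose, duration, batch and the stretch of small intestine taken, and the sample labels say intestine where the series design says small intestine. Whether each library is a separate animal is not stated either, so p-values here reflect only how these samples vary, and part of that may be technical.

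Hox proteins bind DNA through a homeodomain, often together with cofactors of the Pbx and Meis families, and give cells a position along the body axis. Genes with the same paralogue number in different clusters descend from a common ancestor and are in general, but not always, the most alike. Within a cluster, genes with low numbers are active further towards the head and those with high numbers further towards the tail. In the gut, Hox transcripts are known mainly from the mesenchyme of the wall, which forms smooth muscle, with lower levels in the epithelium.

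Each Hox gene carries a homeobox of 180 bases, here within a single exon for all 29 genes, which encodes the part of the protein that binds DNA. Those of Hoxb7, Hoxc8 and Hoxb9 are shown because these genes had the lowest p-values among Hox genes in HFD against ND. Hoxb9 was the only Hox gene past the threshold there, and the other pair was chosen after its values were seen. Capitals mark the 18 bases for a stretch of the third helix that does not vary between Hox proteins. All are on the plus strand of GRCm38 (mm10) and were read by coordinates from the GENCODE M21 annotation. Hoxb7 lies at chr11:96289385-96289564, Hoxc8 at chr15:102992571-102992750 and Hoxb9 at chr11:96274659-96274838.
Hoxb7: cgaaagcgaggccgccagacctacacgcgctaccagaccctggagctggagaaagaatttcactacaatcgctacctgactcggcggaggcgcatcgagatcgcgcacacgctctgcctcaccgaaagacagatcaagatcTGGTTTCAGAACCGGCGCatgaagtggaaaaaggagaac
Hoxc8: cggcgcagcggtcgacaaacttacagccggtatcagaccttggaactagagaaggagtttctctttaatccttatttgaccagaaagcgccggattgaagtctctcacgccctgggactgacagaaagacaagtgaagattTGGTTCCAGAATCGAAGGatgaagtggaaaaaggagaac
Hoxb9: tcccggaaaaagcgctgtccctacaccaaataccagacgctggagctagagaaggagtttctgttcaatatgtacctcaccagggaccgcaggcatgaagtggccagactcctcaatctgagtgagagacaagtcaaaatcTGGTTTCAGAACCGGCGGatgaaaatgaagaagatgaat
The homeobox of Hoxb9 shared 84.4% of its bases with that of Hoxd9 and 64.4% with that of its neighbour Hoxb8. The homeobox of Hoxb7 was 88.9% identical to that of Hoxb6, with an unbroken shared run of 37 bases. It was less alike, at 85.0%, to that of Hoxa7, which has the same paralogue number. Over the 28 pairs of the same paralogue number, identity ran between 68.9% and 93.9% with a median of 82.8%. Over the 101 pairs of different number within a cluster the median was 63.9%. The longest identical run between any pair was 52 bases, so a read inside such a run could come from more than 1 Hox gene.

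The authors deposited FPKM, fragments scaled to gene length and library total. Steps in the low values of 658 single-exon genes gave 3.19e+07 to 3.83e+07 fragments per library. Mitochondrially encoded protein genes made up 12.9% to 21.9% of summed FPKM in FSP, 18.1% to 40.4% in HFD (40.4% in HFD 1) and 16.3% to 22.2% in ND. Epithelial genes were high in every library, with Epcam, an epithelial adhesion gene, at 902 ± 36.3 FPKM in FSP, 562 ± 115 FPKM in HFD and 828 ± 50.1 FPKM in ND (SD, n = 4, 4 and 3). Libraries differed in smooth muscle genes within a group, and FSP 2 and HFD 1 stood low in them.

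Most Hox genes with paralogue numbers 2 to 8 were present at low levels, the exception being Hoxd3 under the filter on low values. Those numbered 9 and above were at or near 0, except Hoxb9 in ND 1 and ND 2. Of the 29 genes, 20 had a mean of at least 0.1 FPKM over the 11 libraries and were tested. These were 6 of 10 in Hoxa, 8 of 9 in Hoxb, 4 of 5 in Hoxc and 2 of 5 in Hoxd. Of the 29, 6 reached a mean of 1 FPKM, and 19 were above 0 in every library. The highest mean was 2.39 FPKM for Hoxa5, and 8095 of the 24250 genes of the table had a mean at least as high. By paralogue number, all genes of groups 2, 4, 5, 6, 7 and 8 passed the filter on low values, against 2 of 3 in group 3 and 1 of 4 in group 9.

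**Figure D1:**
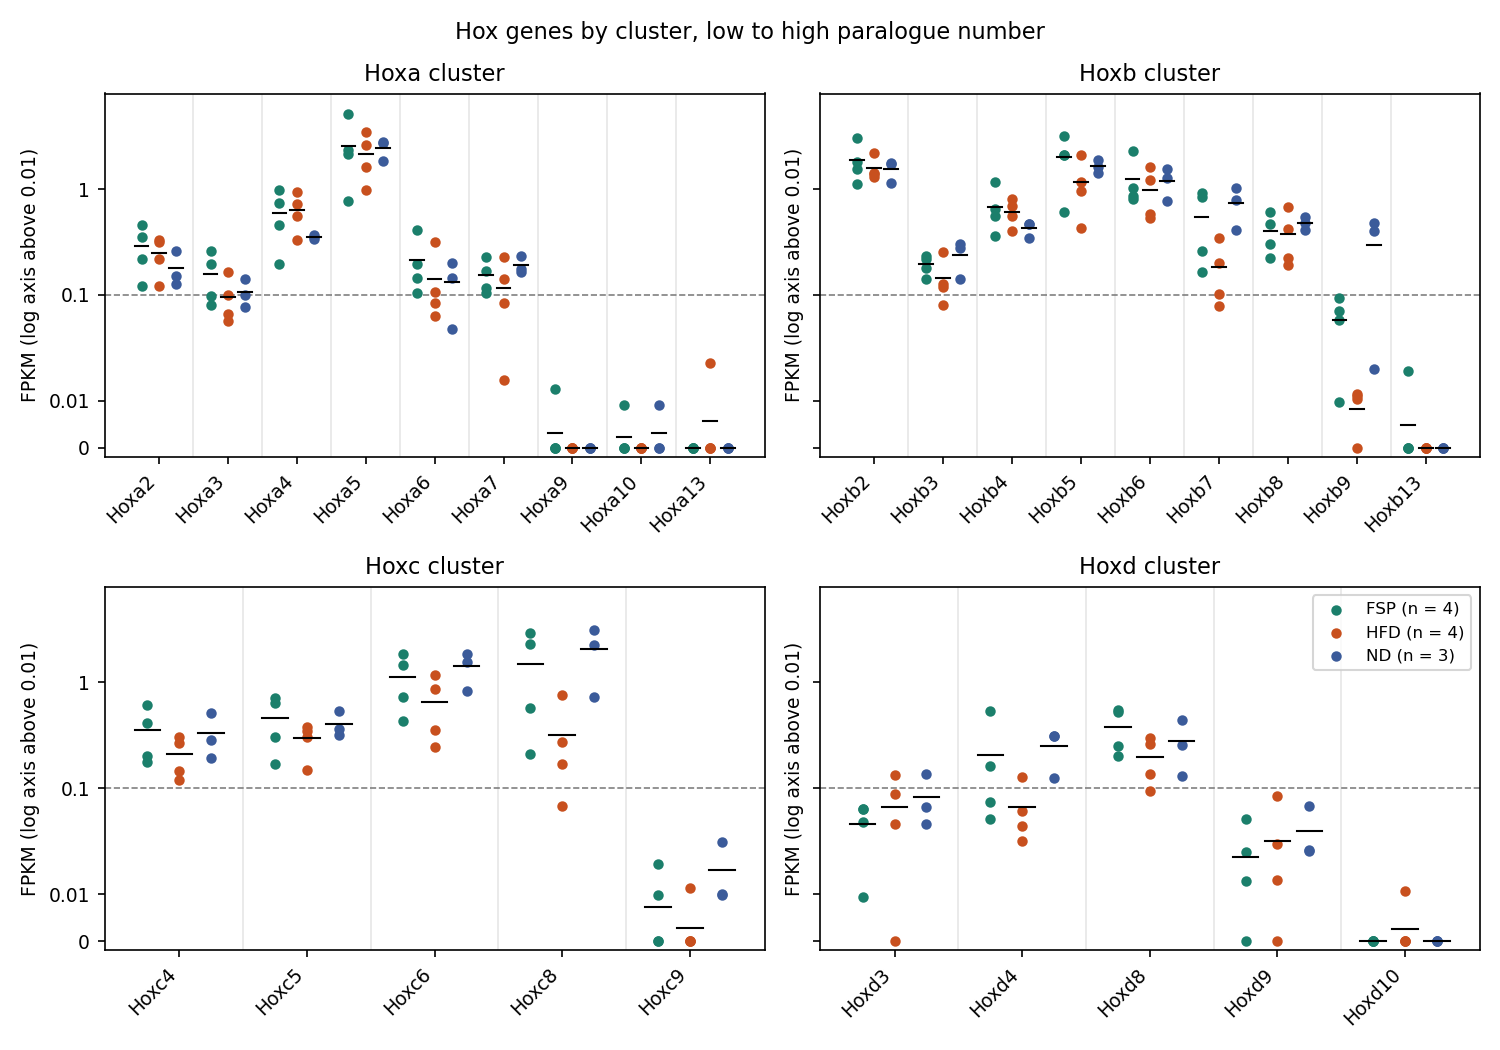
FPKM of the Hox genes named in the text, in single libraries, by cluster and rising paralogue number. The vertical axis is linear up to 0.01 FPKM and logarithmic above, points are libraries, black bars are group means, colours are FSP, HFD and ND (n = 4, 4 and 3), and the dashed line marks the filter of 0.1 FPKM. Libraries lie below the line for genes numbered 9 and above, except Hoxb9 in ND 1 and ND 2.

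The 9 genes under the filter included Hoxa9, Hoxa10, Hoxa13, Hoxb13, Hoxc9, Hoxd3, Hoxd9 and Hoxd10. None exceeded 0.137 FPKM in any library, a value reached by Hoxd3 in ND 1. The highest mean under the filter was 0.0636 FPKM for Hoxd3, and the lowest mean above it was 0.105 FPKM for Hoxb9. Hoxa9, Hoxa13, Hoxb13 and Hoxd10 were above 0 in a single library each, and Hoxa10 in 2. Hoxc9 was listed above 0 in all 3 ND libraries, at 0.0310, 0.00993 and 0.00980 FPKM, which correspond to 3, 1 and 1 fragments. Hoxc9 was above 0 in 2 of 4 FSP libraries and in 1 of 4 HFD libraries, with at most 2 fragments, a number too small for a comparison. Hoxd9 ran between 0 and 0.0846 FPKM over all libraries.

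In Hoxa, on the minus strand of chromosome 6, Hoxa5 had the highest level of the cluster. Hoxa5 is needed in mouse for development of the lung. It had 5.07, 0.777, 2.13 and 2.32 FPKM in FSP 1 to 4, 0.972, 3.42, 2.60 and 1.61 FPKM in HFD 1 to 4, and 2.78, 2.74 and 1.82 FPKM in ND 1 to 3. The groups overlapped, FSP 1 and HFD 2 were high, and FSP 2 and HFD 1 were low. Hoxa4 averaged 0.594 ± 0.341 FPKM in FSP, 0.631 ± 0.254 FPKM in HFD and 0.353 ± 0.0161 FPKM in ND. The remaining tested members, Hoxa2, Hoxa3, Hoxa6 and Hoxa7, had means over all libraries of 0.243, 0.121, 0.165 and 0.151 FPKM.

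In Hoxb, on the plus strand of chromosome 11, Hoxb2 had the highest level. It is known from the hindbrain, where it acts in segment identity. It had 3.02, 1.54, 1.11 and 1.79 FPKM in FSP 1 to 4, 1.40, 2.21, 1.42 and 1.29 FPKM in HFD 1 to 4, and 1.77, 1.74 and 1.14 FPKM in ND 1 to 3. The groups overlapped, and no library was under 1.11 FPKM. Hoxb5, which acts in enteric neuron precursors, averaged 1.99 ± 1.05 FPKM in FSP, 1.15 ± 0.688 FPKM in HFD and 1.64 ± 0.233 FPKM in ND. Hoxb6 averaged 1.24 ± 0.693 FPKM in FSP, 0.985 ± 0.516 FPKM in HFD and 1.20 ± 0.399 FPKM in ND. Over all libraries Hoxb3, Hoxb4 and Hoxb8 had means of 0.189, 0.587 and 0.413 FPKM, so the cluster had its highest levels at numbers 2, 5 and 6.

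In Hoxc, on the plus strand of chromosome 15, Hoxc8 and Hoxc6 were the most abundant. Hoxc8, known for its part in thoracic and lumbar patterning of the skeleton and in motor neurons, had 2.96, 0.568, 0.209 and 2.29 FPKM in FSP 1 to 4, 0.171, 0.756, 0.272 and 0.0674 FPKM in HFD 1 to 4, and 3.16, 2.27 and 0.732 FPKM in ND 1 to 3. FSP 1, FSP 4, ND 1 and ND 2 were high, and HFD 2, the highest HFD library, lay just above ND 3. Hoxc6 averaged 1.12 ± 0.659 FPKM in FSP, 0.661 ± 0.436 FPKM in HFD and 1.42 ± 0.529 FPKM in ND. Hoxc4 and Hoxc5 had means over all libraries of 0.294 and 0.386 FPKM.

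In Hoxd, on the plus strand of chromosome 2, Hoxd8 was the highest. It had 0.549, 0.202, 0.252 and 0.525 FPKM in FSP 1 to 4, 0.261, 0.298, 0.136 and 0.0938 FPKM in HFD 1 to 4, and 0.446, 0.131 and 0.259 FPKM in ND 1 to 3. The groups overlapped. Hoxd4 averaged 0.206 ± 0.225 FPKM in FSP, 0.0660 ± 0.0426 FPKM in HFD and 0.249 ± 0.106 FPKM in ND.

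In HFD against ND, 1 low-level gene, Hoxb9, was past the threshold downwards, and Hoxb7 and Hoxc8 had negative differences that did not pass. Hoxb9 reached the filter on low values only through ND 1 and ND 2, so a lower level in HFD was built into its being tested, and its call is no support for a change of Hox genes. Of the 20 tested Hox genes, 1 passed downwards and none upwards in limma with Benjamini-Hochberg adjustment over all 14803 tested genes at 0.05. At an unadjusted p under 0.05, 4 were lower (Hoxb7, Hoxb9, Hoxc8 and Hoxd4), against 22.7% of all tested genes, and none was higher, against 8.4%. The share past the threshold among all tested genes was 9.63% downwards and 4.26% upwards, or 13.9% in either direction, so 1 of 20 is not above that background. Counts of all genes leaned downwards (630 higher and 1426 lower), and this split moved to 1021 higher and 837 lower with median-ratio scaling and to 1188 higher and 1275 lower with quantile normalization.

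Hoxb9 acts in patterning of the ribs. It had 0.0931, 0.0704, 0.0583 and 0.00968 FPKM in FSP 1 to 4, 0.0116, 0.0110, 0.0104 and 0 FPKM in HFD 1 to 4, and 0.399, 0.475 and 0.0199 FPKM in ND 1 to 3. ND 1 and ND 2 were high, and ND 3 was lower than 3 of 4 FSP libraries. These values correspond to 9, 7, 6 and 1 fragments in FSP, 1, 1, 1 and 0 in HFD, and 38, 47 and 2 in ND, and the 0 of HFD 4 allows up to 3 fragments or 0.0298 FPKM (counting error only). HFD and ND did not overlap, by a single fragment between HFD 1 and ND 3. The difference was -1.59 ± 0.47 (SE) on the log2(FPKM + 0.1) scale, with an adjusted p of 0.0450 in limma. At this level the size depends on the added constant, with -3.38 for a constant of 0.01 and -0.35 for a constant of 1. The call was lost with no filter on low values (adjusted p = 0.0632 in limma). It was also lost without any single library other than FSP 2 or ND 3, with adjusted p between 0.0518 and 0.204, and over all alternatives the adjusted p ran between 0.000186 and 0.204.

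Hoxb7, active in the ureteric bud of the developing kidney, had 0.848, 0.165, 0.257 and 0.915 FPKM in FSP 1 to 4, 0.103, 0.346, 0.0790 and 0.200 FPKM in HFD 1 to 4, and 0.781, 1.03 and 0.414 FPKM in ND 1 to 3. Every HFD library was below every ND library, while FSP 1 and FSP 4 were at the level of ND and FSP 2 and FSP 3 at that of HFD. The values rest on 13 to 75 fragments in FSP, 6 to 25 in HFD and 33 to 81 in ND. The difference between HFD and ND was -1.60 ± 0.52 (SE) on the log2(FPKM + 0.1) scale, with an adjusted p of 0.0617 in limma. Leaving out each library in turn, the adjusted p ran between 0.0375 and 0.226, under the threshold without FSP 2 or HFD 2 and highest without ND 2. Groups did not overlap downwards for Hoxb7 and Hoxb9, 2 of 20 Hox genes, against 27.6% of all tested genes, and for none upwards, against 8.7%.

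Hoxc8 averaged 1.51 ± 1.33 FPKM in FSP, 0.316 ± 0.305 FPKM in HFD and 2.05 ± 1.23 FPKM in ND. The difference between HFD and ND was -2.42 ± 0.81 (SE), with a 95% interval from -4.18 to -0.67 and an adjusted p of 0.0657 in limma. Leaving out each library in turn, the adjusted p ran between 0.0380 and 0.237, under the threshold without FSP 3 or HFD 2 and highest without ND 1. Of the lower paralogue numbers, Hoxc6 differed by -1.13 ± 0.54 (adjusted p = 0.177 in limma) and Hoxd4 by -1.05 ± 0.47 (adjusted p = 0.152 in limma).

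**Figure D2:**
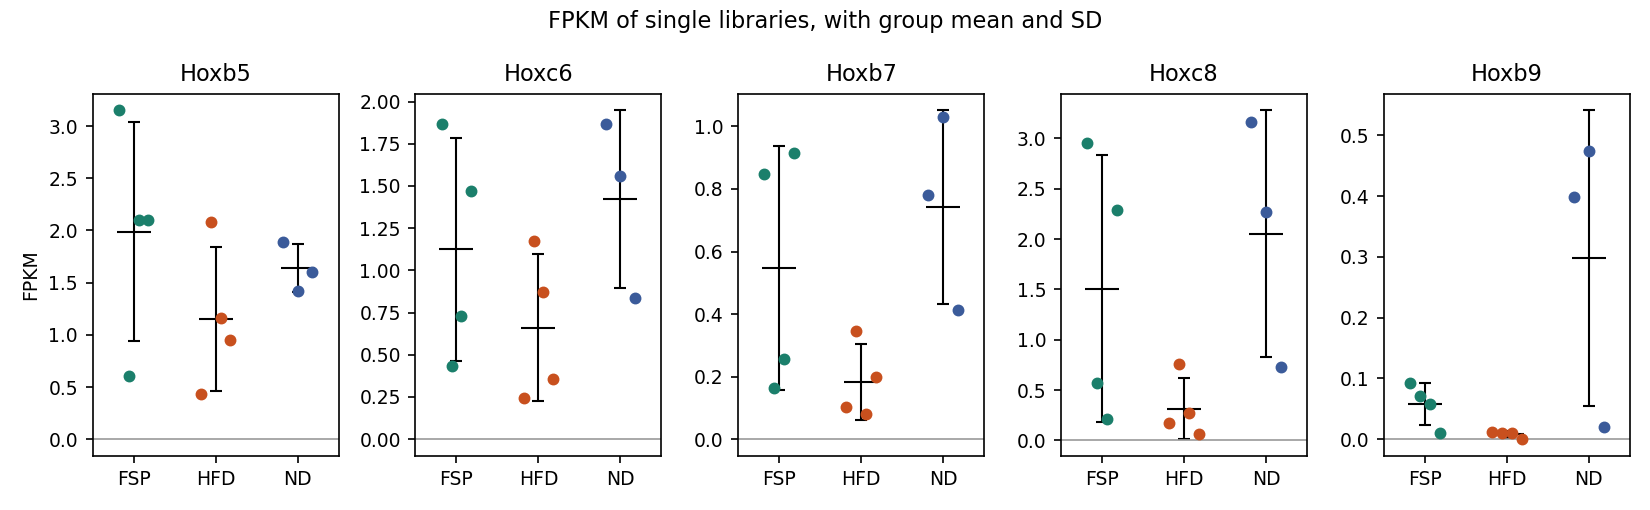
FPKM of Hoxb5, Hoxc6, Hoxb7, Hoxc8 and Hoxb9 in single libraries (points, replicate 1 leftmost) of FSP, HFD and ND, with group mean and SD (n = 4, 4 and 3), each on its own linear axis. HFD lies below ND without overlap for Hoxb7 and Hoxb9 and with overlap for the others.

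By paralogue number, the 6 tested genes of groups 7 to 9 all had negative differences in HFD against ND, with a median of -1.06 and a range from -2.42 to -0.33. Hoxb9, the only tested gene of group 9, is among these 6. It was tested only because of its level in ND 1 and ND 2, so its sign carries no weight in this count. The 14 tested genes of groups 2 to 6 had 9 negative and 5 positive differences, with a median of -0.31 and a range from -1.13 to 0.62. The positive end was held by Hoxa4 at 0.62 ± 0.43 and Hoxb4 at 0.41 ± 0.34 (adjusted p = 0.336 and 0.421 in limma), genes known for patterning of the cervical vertebrae. Over all 20 the median was -0.38 and 15 differences were negative, beside a median of -0.25 and 69.2% negative over all tested genes. HFD 4 was the lowest library for 10 of the 20, so signs of Hox genes are not independent of each other. The median of all genes was -0.01 under median-ratio scaling and -0.36 under equal totals. No sign in groups 7 to 9 turned under these, but they shift all genes nearly alike and by less than the smallest of the 6 differences, so this says nothing about stability.

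**Figure D3:**
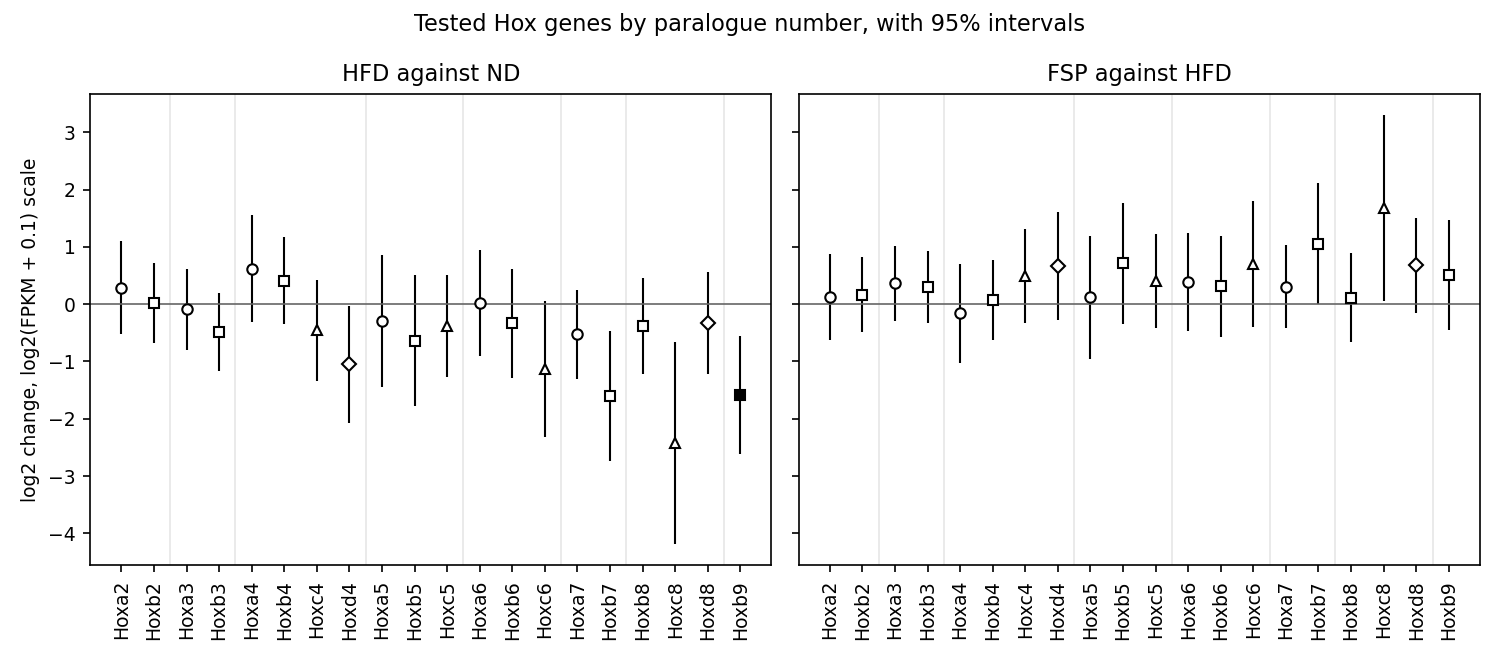
Log2 differences of the 20 tested Hox genes on the log2(FPKM + 0.1) scale with 95% intervals, for HFD against ND (left) and FSP against HFD (right), ordered by paralogue number. Circles are Hoxa, squares Hoxb, triangles Hoxc and diamonds Hoxd, and the filled symbol is past the threshold. Intervals of 16 genes on the left and 18 on the right include 0.

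The share of paralogue groups 7 to 9 in the summed FPKM of all 29 Hox genes does not depend on how a library is scaled. It was 20.3%, 19.7%, 11.2% and 26.5% in FSP 1 to 4, 13.8%, 14.5%, 9.85% and 7.75% in HFD 1 to 4, and 30.8%, 28.3% and 20.3% in ND 1 to 3. Each HFD library was below each ND library, and FSP overlapped both, with FSP 3 at the level of HFD. Without Hoxc8, which had the highest mean among these genes, the share was 9.45% to 14.9% in FSP, 6.90% to 11.5% in HFD and 14.0% to 16.7% in ND, with HFD below ND. That share still holds Hoxb7 and Hoxb9, which were themselves lower in HFD than in ND without overlap. It therefore does not show whether the remaining genes of these groups differ. In FPKM, HFD and ND overlapped for each of the other tested genes of these groups. Hoxa7 was 0.0158 to 0.226 FPKM in HFD and 0.166 to 0.233 FPKM in ND. Hoxb8 was 0.191 to 0.682 FPKM in HFD and 0.410 to 0.538 FPKM in ND. Hoxd8 was 0.0938 to 0.298 FPKM in HFD and 0.131 to 0.446 FPKM in ND. These shares describe the libraries and were not tested.

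The clusters differed in this share. In Hoxb it averaged 14.0% ± 3.76 in FSP, 10.9% ± 1.54 in HFD and 22.4% ± 4.66 in ND (SD). In Hoxc it was 14.4% to 48.7% in FSP, 7.70% to 29.3% in HFD and 34.7% to 52.2% in ND. In Hoxa it was 3.09% to 7.10% in FSP, 0.596% to 4.49% in HFD and 4.61% to 6.32% in ND. HFD was below ND without overlap in these clusters, in Hoxa only by 4.49% against 4.61%. In HFD and ND the Hoxa share is Hoxa7 alone, with 2 fragments in HFD 4. The Hoxc share is Hoxc8 beside at most 3 fragments of Hoxc9. The Hoxb share holds Hoxb7 and Hoxb9 beside Hoxb8. The shares of these clusters therefore rest on single genes and are no separate support. In Hoxd it was 49.1% to 75.2% in FSP, 53.1% to 82.6% in HFD and 29.5% to 62.2% in ND, with overlap and the higher values in HFD. The ratio of Hoxc8 to Hoxc6 FPKM was 0.285 to 1.58 in FSP, 0.189 to 0.699 in HFD and 0.873 to 1.69 in ND. The ratio of Hoxb7 to Hoxb5 was 0.122 to 0.437 in FSP, 0.0681 to 0.238 in HFD and 0.258 to 0.724 in ND. Hoxc8 and Hoxb7 were among the Hox genes with the lowest p-values in HFD against ND, so lower ratios in HFD repeat those differences. They are no separate support, and ratios of other Hox genes were not examined.

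Genes of the distal and proximal small intestine moved between the same groups. Of 11 distal genes, 10 fell in HFD against ND and none rose, among them Fabp6, which binds bile acids in ileal cells, and Slc10a2, the ileal bile acid transporter. Of 9 proximal genes, 7 rose and 1 fell, with Rbp2, an intestinal retinol-binding protein, and Slc46a1, a folate transporter, among the 7. Among all tested genes, 4.26% rose and 9.63% fell. The mean log2(FPKM + 1) of the 11 distal genes was 5.14 to 7.08 in FSP, 4.02 to 4.51 in HFD and 6.19 to 7.75 in ND. Their summed FPKM was 1472 to 5138 in FSP, 831 to 1185 in HFD and 2687 to 13393 in ND, and no gene of either list was at 0 in all libraries. Proximal genes summed to 6802 to 17857 FPKM in FSP, 20857 to 28514 FPKM in HFD and 1446 to 7160 FPKM in ND. FSP 3, with the lowest Hox share among FSP libraries, also had the lowest distal mean among them, and their part in the Hox share was not tested.

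The summed level of all 29 Hox genes overlapped between the 3 groups. It was 26.1, 7.06, 10.6 and 16.7 FPKM in FSP 1 to 4, 6.46, 16.5, 10.9 and 7.33 FPKM in HFD 1 to 4, and 18.4, 16.2 and 10.1 FPKM in ND 1 to 3. FSP 1 was the highest library for 12 of the 20 tested genes, and HFD 4 the lowest for 10. All 10 smooth muscle genes were measured and none passed the test in any comparison, and their summed level was 118 to 908 FPKM in FSP, 168 to 670 FPKM in HFD and 487 to 689 FPKM in ND. The mean log2(FPKM + 1) of these genes was 5.67, 3.05, 4.45 and 5.10 in FSP 1 to 4, 3.48, 5.32, 4.83 and 4.59 in HFD 1 to 4, and 5.36, 5.25 and 4.80 in ND 1 to 3. FSP 1 was highest in both measures, and FSP 2 and HFD 1 were lowest in smooth muscle genes and lowest in the Hox sum. HFD 4 went otherwise, with a Hox sum of 7.33 FPKM, near FSP 2, and a smooth muscle mean of 4.59. That mean was above the 4.45 of FSP 3, whose Hox sum was 10.6 FPKM. The 9 enteric neuron genes summed to 7.68 to 41.0 FPKM in FSP, 7.22 to 26.4 FPKM in HFD and 20.4 to 33.6 FPKM in ND. The 8 fibroblast genes summed to 35.6 to 96.9 FPKM in FSP, 31.3 to 97.7 FPKM in HFD and 56.1 to 110 FPKM in ND. None of the 8 tested neuron genes, 4 glial genes, 8 fibroblast genes and 5 endothelial genes passed the test in any comparison. Of 7 adipocyte genes, Cidec, a lipid droplet gene, rose in HFD and in FSP, each against ND. Of 7 B and plasma cell genes, Jchain, the joining chain of antibodies, rose in FSP against ND. Of 7 epithelial genes, Cdx1 and Epcam fell in HFD against ND, and Epcam rose in FSP against HFD. Of 4 tested colon genes, 3 fell and Aqp8 rose in HFD against ND, Aqp8 fell in FSP against HFD, and Cyp2c55 fell in FSP against ND. Of 2 tested pancreatic genes, Clps rose in HFD against ND. In whole tissue, fewer cells of a type and less RNA per cell cannot be told apart, and the part of these cell types in the Hox levels was not tested.

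**Figure D4:**
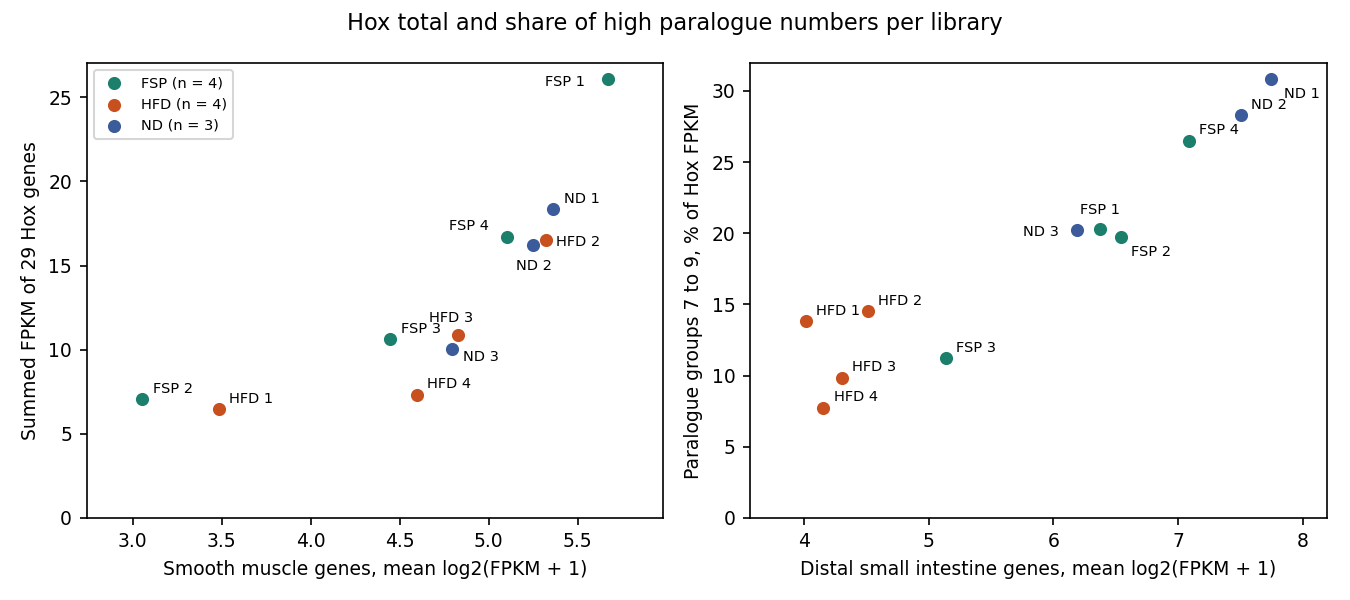
Left, summed FPKM of the 29 Hox genes against the mean log2(FPKM + 1) of 10 smooth muscle genes. Right, share of paralogue groups 7 to 9 in the Hox sum against the mean log2(FPKM + 1) of 11 distal small intestine genes. Each point is a library, coloured as FSP, HFD or ND; FSP 2 and HFD 1 sit at the lower left of the left panel, and the 4 HFD libraries and FSP 3 at the lower left of the right panel.

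In FSP against HFD, no Hox gene passed the threshold in either direction, against 1.49% of tested genes upwards and 0.561% downwards (2.05% in all). At an unadjusted p under 0.05, 2 Hox genes were higher, Hoxc8 and Hoxb7, against 11.6% of tested genes, and none was lower, against 3.74%. Hoxc8 differed by 1.68 ± 0.75 (adjusted p = 0.308 in limma) and Hoxb7 by 1.06 ± 0.48 (adjusted p = 0.326 in limma). The groups overlapped in both, as FSP 2 and FSP 3 lay among the HFD values. Hoxb9 differed by 0.52 ± 0.44, Hoxb5 by 0.71 ± 0.48 and Hoxd8 by 0.68 ± 0.38 (adjusted p = 0.643, 0.542 and 0.433 in limma). No Hox gene had groups without overlap, against 6.55% of tested genes upwards and 2.16% downwards.

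Differences in FSP against HFD were positive for 19 of the 20 tested Hox genes, with a median of 0.38, and negative for Hoxa4 at -0.16 ± 0.40. Among all tested genes the median was 0.14 and 31.2% were negative. FSP 1 was the highest library for 12 of the 20 Hox genes and HFD 4 the lowest for 10. The signs of the Hox genes are therefore not independent of each other. With median-ratio scaling the Hox count was 16 positive and 4 negative, with 1 negative in groups 7 to 9, and the median of all genes moved to 0.00. In the groups 7 to 9 the median was 0.60 and in the groups 2 to 6 it was 0.34. The count of all genes past the threshold, 220 higher and 83 lower, became 118 higher and 92 lower with median-ratio scaling, 147 higher and 115 lower with equal totals without mitochondrial genes, and 205 higher and 149 lower with quantile normalization. In the same comparison 7 of 11 distal small intestine genes rose and 2 of 9 proximal genes fell, and their part in the Hox values was not tested. This comparison and HFD against ND share the HFD libraries, so opposite signs in them are not independent.

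In FSP against ND, no Hox gene passed the threshold, against 0.527% of tested genes upwards and 0.196% downwards (0.723% in all). Hoxb9 differed by -1.07 ± 0.47 (adjusted p = 0.388 in limma) and was the only Hox gene with an unadjusted p under 0.05, a rule met downwards by 6.83% and upwards by 5.35% of tested genes. Hoxb9 reached the filter on low values only through ND 1 and ND 2, so a lower level in FSP than in ND was also built into its being tested. Its values in FSP 1 to 3 were above ND 3. The difference rested on the ND libraries, at -1.79 without ND 3, -0.76 without ND 1 and -0.66 without ND 2 (adjusted p = 0.0333, 0.876 and 0.827 in limma). Hoxc8 differed by -0.75 ± 0.81 with a 95% interval from -2.51 to 1.01, and Hoxb7 by -0.54 ± 0.52 with an interval from -1.68 to 0.60. Differences were negative for 10 Hox genes and positive for 10, with a median of 0.00, beside a median of -0.08 and 60.5% negative over all tested genes. Of the 6 tested genes of groups 7 to 9, 5 were negative, Hoxb9 among them, and Hoxd8 was positive. Of the regional genes, 1 of 11 distal genes (Nr1h4) fell and 1 of 9 proximal genes (Rbp2) rose. No Hox gene had groups without overlap, against 4.77% of tested genes upwards and 9.15% downwards. The split of all genes past the threshold, 78 higher and 29 lower, became 73 higher and 50 lower with equal totals without mitochondrial genes.

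Partners of Hox proteins were measured beside them. Of 9 cofactor genes of the Pbx, Meis and Pknox families, 8 were tested and none passed the threshold in any comparison. Meis3 averaged 1.04 ± 0.372 FPKM in FSP, 0.588 ± 0.230 FPKM in HFD and 0.958 ± 0.0607 FPKM in ND, with an adjusted p of 0.176 for HFD against ND in limma, and was picked here after its values were seen. Pknox2 was under the filter. The ParaHox genes form a sister cluster of Hox, and 3 of 6 were in the table. Cdx1, which regulates Hox genes in the embryo and marks intestinal epithelium, fell in HFD at 48.0 ± 7.60 FPKM, against 65.4 ± 0.983 FPKM in ND (adjusted p = 0.0383 in limma). Cdx2 averaged 54.3 ± 16.2 FPKM in HFD and 85.0 ± 17.8 FPKM in ND (adjusted p = 0.104 in limma), and Pdx1 was under the filter. Neither Cdx1 nor Cdx2 passed in FSP against HFD or in FSP against ND.

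Of 15 other gut patterning factors, 13 were tested, and 2 rose and 2 fell in HFD against ND. These counts stand beside 4.26% of all tested genes that rose and 9.63% that fell. Gata6, an intestinal transcription factor, rose to 42.4 ± 4.26 FPKM in HFD, against 23.3 ± 0.589 FPKM in ND (adjusted p = 0.00200 in limma). Gata4, which specifies proximal small intestine, rose to 30.5 ± 4.85 FPKM in HFD, against 16.6 ± 7.53 FPKM in ND (adjusted p = 0.0338 in limma). Of those that fell, Gata5 stood at 14.9 to 21.7 FPKM in HFD and 25.1 to 25.9 FPKM in ND (adjusted p = 0.0446 in limma). In FSP against HFD, Gata5 rose, at 27.6 to 35.7 FPKM in FSP, and Gata6 fell, at 28.8 ± 3.66 FPKM in FSP (adjusted p = 0.0169 and 0.0361 in limma), and none of the 13 passed in FSP against ND. Of the factors of the gut mesenchyme, Foxf1, Foxf2 and Nkx2-3 did not pass in any comparison, and Barx1 was under the filter and not tested.

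Polycomb proteins keep Hox genes silent and trithorax proteins keep them active. Of 20 such genes, 3 fell and none rose in HFD against ND, and none passed in FSP against HFD or FSP against ND. Ezh2, the enzyme that methylates histone H3 in Polycomb repression, fell to 2.91 ± 0.669 FPKM in HFD, against 5.77 ± 0.428 FPKM in ND (adjusted p = 0.0278 in limma). Its partner Eed fell to 11.2 ± 1.49 FPKM in HFD, against 16.2 ± 1.25 FPKM in ND (adjusted p = 0.0401 in limma). Rnf2, a ubiquitin ligase of Polycomb, fell to 5.20 ± 0.697 FPKM in HFD, against 10.5 ± 2.66 FPKM in ND (adjusted p = 0.00641 in limma). These 3 of 20 stand beside the 9.63% of all tested genes that fell.

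Retinoic acid sets the anterior limits of Hox expression in the embryo. Of 14 genes of this pathway, 10 were tested, and in HFD against ND 1 rose and 1 fell. Of all tested genes, 4.26% rose and 9.63% fell there (13.9% in either direction). Dhrs3, which reduces retinaldehyde, rose to 9.31 ± 1.14 FPKM in HFD, against 5.08 ± 0.534 FPKM in ND (adjusted p = 0.00678 in limma). Rxra, a receptor partner, fell to 17.2 ± 4.60 FPKM in HFD, against 27.4 ± 0.784 FPKM in ND (adjusted p = 0.0427 in limma). None of the 10 passed in the FSP comparisons.

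Some Hox values may mix transcripts. Gene intervals of 7 pairs of Hox genes overlap on the same strand in GENCODE M21, involving 10 genes, among them Hoxa3 with Hoxa4, Hoxa5 and Hoxa6, and Hoxc5 with Hoxc6 and Hoxc8. The table also lists 5 Hox antisense or noncoding symbols, and Hoxb3os, which overlaps Hoxb2 and Hoxb3, averaged 0.387 FPKM in FSP, 0.358 FPKM in HFD and 0.607 FPKM in ND. The overlaps of the 7 pairs are of whole gene intervals with introns, and overlap of their exons was not examined. No strand setting could separate genes on the same strand. The use of strand in counting is not given in the sources used here. It is therefore not known how reads in stretches that Hoxb3os shares with another gene were counted.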

How the data were processed

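The members and gene lists were chosen with earlier results of these data known. Per the labels, TRIzol was used for RNA and the VAHTS Universal V6 kit for libraries. Per the submitters' processing notes, fastp, HISAT2, HTSeq, R 3.2.0 and the build mm10 were used. Which annotation, strand setting and program gave FPKM is not stated in these. The authors deposited FPKM per library, with single-library tables identical in value for the genes shared with the table of all libraries. Each FSP table listed the same 24250 genes as that table. Each HFD and ND table listed 24294 genes, of which 23609 were shared. The tables of HFD and ND lacked Hoxa9, which the table of all libraries gives as 0 there. This difference in gene sets falls together with the FSP group, and its effect on the FSP comparisons was not tested. FPKM divides by the library's total, so an abundant RNA class lowers all other genes.

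Genes with a mean of at least 0.1 FPKM (14803) entered limma 3.58.1 (R 4.3.3) as log2(FPKM + 0.1). The fit held all 11 libraries, an intensity trend and no covariate. Tests were two-sided with Benjamini-Hochberg adjustment per comparison and a threshold of 0.05. This scale understates changes of low genes. Errors are SD for levels and SE for differences. The script was tested on simulated data. Fragment numbers were recovered where FPKM steps were whole to within a mean of 0.03 fragments (17 of 29 Hox genes). At or under 10 fragments, 74.7% to 79.9% of values of the single-exon genes lay within 0.05 of a whole number. Other genes depend on an unstated annotation, so no count model was used.

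Every Hox gene tested is named. Some genes of the lists and of the Hox rows are counted but not reported here by name. Values per library are given for the Hox gene past the threshold, for the highest of each cluster and for Hoxb7, added after its values were seen, and up to 4 genes past the threshold are named per list. The lists were enteric cell types, gut regions, pancreas, Hox cofactors, ParaHox, patterning factors, Polycomb and trithorax, and retinoic acid. Alternatives changed the constant, filter, scaling, trend, weights, block and libraries. Homeoboxes were taken from GENCODE M21 coordinates.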

Additional observations from a re-analysis of the deposited data

Results flagged for a closer look

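Of 44 groups of 4 libraries, 3 held a library far from the others by Dixon's ratio, and chance flags about 1 in 20 groups. Hoxb2 was 2.21 FPKM in HFD 2, above the other HFD libraries at 1.29 to 1.42 FPKM. Hoxb6 was 2.27 FPKM in FSP 1, above the other FSP libraries at 0.809 to 1.02 FPKM. Hoxb9 was 0.0 FPKM in HFD 4, below the other HFD libraries at 0.0104 to 0.0116 FPKM, a gap of 1 fragment. FSP 1 and HFD 2 were also the highest of their groups in smooth muscle genes, whose part in these values was not tested.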

How the results depend on the processing

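Alternatives were 13 other settings and 11 fits that each left out a library. The constant of 0.01 FPKM was chosen after seeing the data. In HFD against ND, Hox genes lower numbered 1 (Hoxb9). The count became 0 with a filter of 1 FPKM (with either constant, since Hoxb9 is then not tested), with no filter and with median-ratio scaling. With only the 2 groups compared it was 2, Hoxb7 and Hoxc8 (adjusted p = 0.0329 and 0.0338 in limma). Hoxb9 did not pass there (adjusted p = 0.0709 in limma). With quantile normalization it was 3, Hoxb7, Hoxb9 and Hoxc8 (adjusted p = 0.0250, 0.0393 and 0.0409 in limma). Array weights gave 6 lower, Hoxb7, Hoxb9 and Hoxc8 among them, and 1 higher (Hoxa4). Leaving out a library gave 0 to 2 lower. Hoxb9 was past the threshold in 9 of 22 alternatives. In FSP against HFD, array weights gave 1 Hox gene higher, and in FSP against ND array weights gave 1 lower and leaving out a library 0 to 1. Array weights gave 6.76 to HFD 3 and 6.42 to ND 2 against 0.203 to HFD 1, so they rest on few libraries. Hoxa4 in FSP against HFD turned to 0.10 with array weights and ran between -0.43 and 0.20 over left-out libraries, with 0.20 without FSP 2 and 0.03 without HFD 2. Of 60 Hox differences, 18 turned sign, 8 gained and 1 lost a call under some alternative. The causes were not tested. Calls of single genes outside the Hox rows, such as Eed, Gata5, Cdx1, Rxra and Epcam near 0.05, were not followed through these alternatives.

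Counts of all genes, higher and lower, moved as follows. HFD against ND gave 2320 and 5609 with array weights, 1021 and 837 with median-ratio scaling, 1188 higher with quantile normalization, and 277 to 725 and 468 to 1912 over left-out libraries. FSP against HFD gave 977 and 403 with array weights, 44 lower with equal totals, 118 higher with median-ratio scaling, 101 and 35 with no filter, 63 and 27 with no intensity trend, 25 and 9 with only the 2 groups compared, 149 lower with quantile normalization, and 5 to 345 and 2 to 125 over left-out libraries. FSP against ND gave 408 and 426 with array weights, 46 and 17 with equal totals, 50 lower with equal totals without mitochondrial genes, 44 lower with log2(FPKM + 1), 32 higher with no filter, 36 and 13 with no intensity trend, 38 higher with only the 2 groups compared, 58 lower with quantile normalization, and 13 to 117 and 1 to 63 over left-out libraries.

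Same-numbered libraries did not deviate together in every pair (r between -0.085 and 0.405), so the numbers were not taken as pairs. With the replicate number as a block, HFD against ND gave 809 higher and 1597 lower, FSP against HFD 210 and 86, and FSP against ND 57 and 24. Under the block Hoxb9 differed by -1.49 (adjusted p = 0.0549 in limma) and Hoxb7 by -1.78 (adjusted p = 0.0417 in limma). Depth limits genes under about 0.1 FPKM, where a Hox gene rests on a few fragments.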
